A study of Mus musculus with 8 samples.

Results

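The genes described here are those of the cell cycle, DNA replication and the p53 response, followed in WT and N-LKO livers. N-LKO mice lack Nus1, the gene for the Nogo-B receptor (NgBR), in the liver, through a loxP-flanked NgBR allele cut by Cre recombinase under the albumin promoter, which is active in hepatocytes. Both groups were on a C57BL6 background and were fed chow diet (CD). The sample titles, the design text and the study's supplement put its length at 8 weeks, whereas the treatment entries say 16 weeks. The study's methods state that its experiments used male mice. The age of these mice, and whether the WT mice carried loxP alleles, are not given in the sources used here. There were 4 WT and 4 N-LKO livers, with 1 RNA library per mouse.

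The list held 54 genes, chosen by gene symbol and by what they are known to do, and 53 of them were among the 19642 genes of the count table. Earlier results of these data were known when the genes were chosen, which limits comparisons of their shares with all genes. Cdkn2a had no row, so its mRNA was not analysed here. The list was made of 14 genes of mitosis, 11 of DNA replication, 7 of G1/S control, 4 for p53 and inhibitors of cyclin-dependent kinases, 16 targets of p53 and 2 further Gadd45 genes. The comparison contrasts p53 targets with proliferation genes, since growth suppressor and checkpoint genes are among those the study discusses for NgBR deficiency.

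Cells that divide pass from G1 into S phase when cyclin-dependent kinases inactivate the retinoblastoma protein and release E2F factors, which turn on the genes of DNA replication. A later wave of genes, bound by the DREAM and MYB-MuvB complexes at an element called CHR, carries the cell through mitosis. When DNA is damaged or growth signals are wrong, p53 turns on Cdkn1a, which blocks these kinases, and also genes of cell death, DNA repair and its own destruction. Hepatocytes in an adult liver rarely divide, and the mRNA of mitotic genes is low there.

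Values per mouse are CPM, that is a gene's count scaled to a common library size after correction by edgeR's TMM method. Changes are log2 fold changes of N-LKO against WT livers from edgeR's quasi-likelihood test, with their standard error (SE), and p-values were adjusted by the Benjamini-Hochberg method over the 14214 genes left by edgeR's filterByExpr, which removes genes with low counts. A gene was called when its adjusted p was under 0.05. Total counts ranged from 15430522 to 18412170 in WT livers and from 14688380 to 18585376 in N-LKO livers. Nus1 was at 82.0 to 90.5 CPM in WT livers and at 33.3 to 38.7 CPM in N-LKO livers, so each library matched its label. Among the marker lists of liver cell types, 2 of the 4 cholangiocyte genes tested and 2 of the 7 fibroblast and stellate cell genes were called higher in N-LKO livers, whereas 0 of the 6 hepatocyte, 6 macrophage, 5 endothelial and 2 T and NK cell genes tested were called, and 0 of these had an unadjusted p under 0.05 in edgeR. Of the blood cell lists, 3 erythroid, 1 neutrophil and 0 B cell genes could be tested and 0 were called, and 1 erythroid gene, Alas2, had an unadjusted p under 0.05. Over all genes tested, 0.823% were called higher and 12.8% had an unadjusted p under 0.05. The 6 hepatocyte markers summed to 71400 to 101000 CPM in WT livers and 74600 to 90500 CPM in N-LKO livers, and none of them was at 0.

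Of the 53 genes, 42 passed the filter. Only 2 of these were called, Cdkn2c and Cdkn1a, and both rose in N-LKO livers. That is 4.76% of the genes tested here, beside 1.04% of all genes tested (0.823% higher and 0.218% lower). A further 6 genes had an unadjusted p under 0.05 in edgeR without passing the adjustment, which were Eda2r and Cdk1 with positive values and Trp53, Ccng1, Mcm2 and Mcm10 with negative values. With the called genes these made 8 of 42, or 19%, beside 12.8% of all genes tested (6.87% higher and 5.9% lower). The median log2 fold change of the 42 genes was -0.014, with 19 above and 23 below 0, and the median over all genes tested was -0.0033. In 24 of the 42 genes (57.1%) the log2 fold change was within 0.2 of 0, beside 65.9% of all genes tested.

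**Figure D1:**
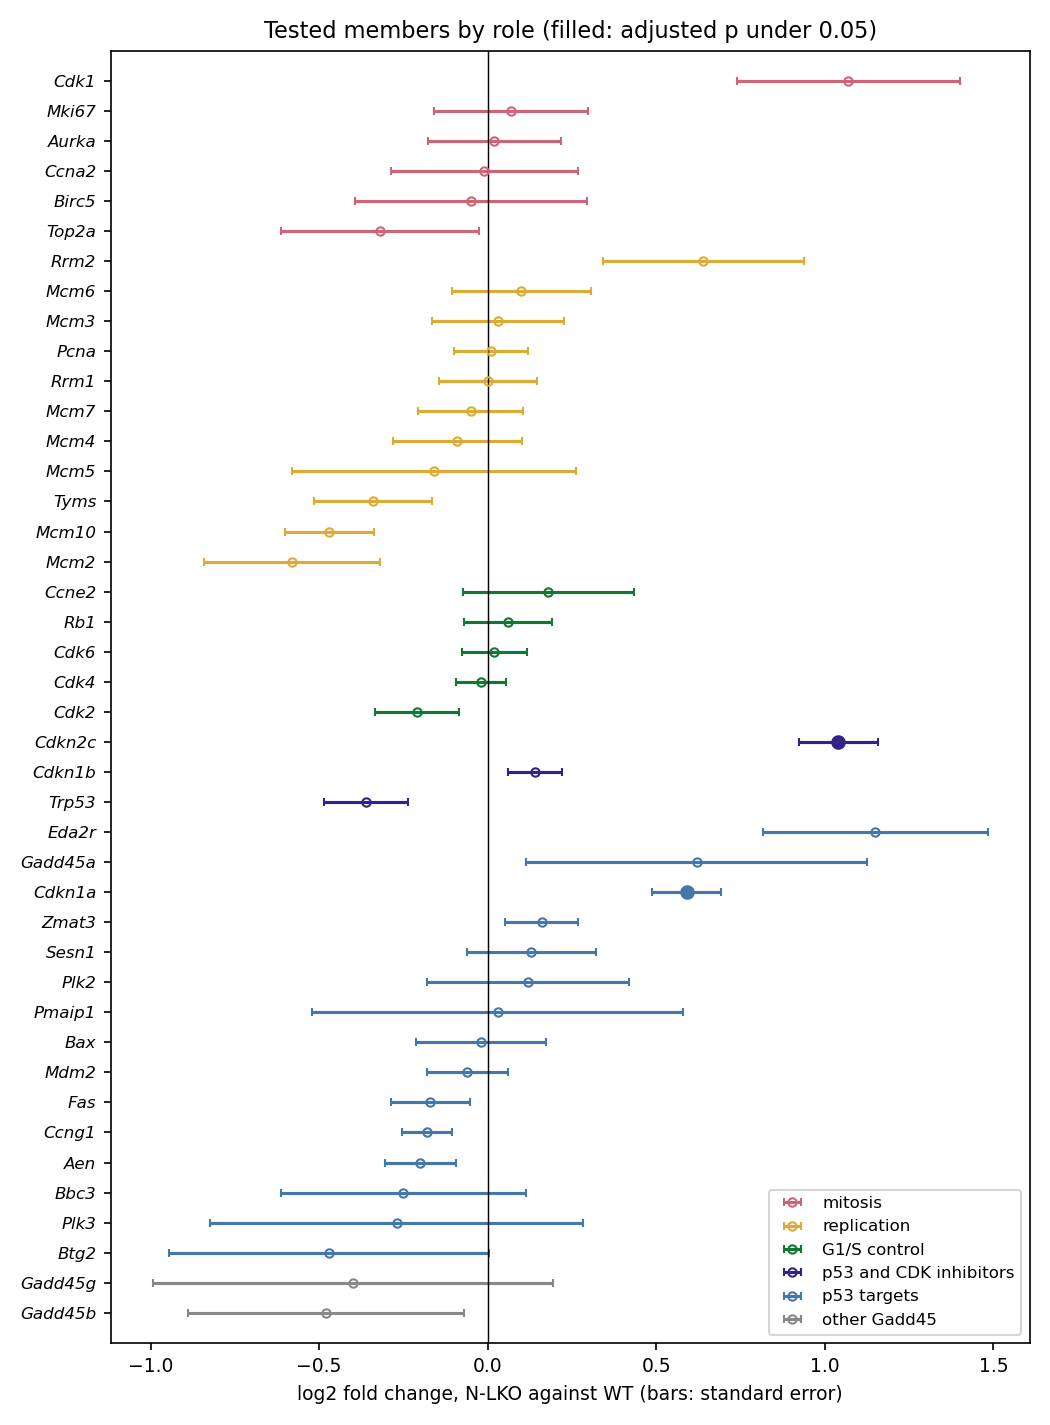
Log2 fold change of N-LKO against WT livers (x axis) for the 42 genes tested, ordered by role, with bars of 1 standard error and filled points for adjusted p under 0.05 in edgeR. The filled points are Cdkn2c at 1.04 and Cdkn1a at 0.59, and 24 of the 42 genes lie within 0.2 of 0.

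Before the values, 4 promoters are shown for the contrast between the p53 targets and the proliferation genes, since p53 half-sites occur in Cdkn1a, Ccng1 and Mdm2, and CHR and E2F letters in Cdk1. CCAAT, in either orientation, occurs in Ccng1, Mdm2 and Cdk1. Each is the 250 bases before the transcription start of RefSeq on GRCm38.p6, written along the strand of the gene, and capitals mark the matches. Cdkn1a lies at chr17:29090729-29090978 on the plus strand, Ccng1 at chr11:40755287-40755536, Mdm2 at chr10:117710759-117711008 and Cdk1 at chr10:69352913-69353162, these 3 on the minus strand. In the GENCODE M21 annotation of the same build the last bases of the Cdkn1a, Ccng1 and Cdk1 windows fall in the first exon.
Cdkn1a: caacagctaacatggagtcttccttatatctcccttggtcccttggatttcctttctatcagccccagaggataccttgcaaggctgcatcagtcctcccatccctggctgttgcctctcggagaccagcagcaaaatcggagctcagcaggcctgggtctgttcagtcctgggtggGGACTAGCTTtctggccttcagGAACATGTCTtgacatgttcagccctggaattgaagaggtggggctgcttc
Ccng1: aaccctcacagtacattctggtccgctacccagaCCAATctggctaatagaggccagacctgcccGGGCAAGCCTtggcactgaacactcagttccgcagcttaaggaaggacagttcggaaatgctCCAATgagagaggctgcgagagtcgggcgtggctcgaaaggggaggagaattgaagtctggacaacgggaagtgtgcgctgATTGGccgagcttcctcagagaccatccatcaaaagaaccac
Mdm2: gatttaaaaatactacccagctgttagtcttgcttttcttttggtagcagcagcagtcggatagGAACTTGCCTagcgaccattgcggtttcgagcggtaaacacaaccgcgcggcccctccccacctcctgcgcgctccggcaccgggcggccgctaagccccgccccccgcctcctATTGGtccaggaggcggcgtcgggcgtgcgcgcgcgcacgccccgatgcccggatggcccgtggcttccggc
Cdk1: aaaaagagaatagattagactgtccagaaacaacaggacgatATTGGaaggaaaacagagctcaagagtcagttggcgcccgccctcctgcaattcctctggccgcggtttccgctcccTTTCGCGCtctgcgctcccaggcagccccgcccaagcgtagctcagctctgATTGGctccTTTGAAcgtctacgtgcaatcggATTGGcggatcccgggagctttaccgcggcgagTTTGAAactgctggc

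In the Cdkn1a window 2 p53 half-sites began 73 and 51 bases before the start. RefSeq gives Cdkn1a a second start 2790 bases downstream, from which these matches were 2863 and 2841 bases away, and the 250 bases before that start held none. Ccng1 and Mdm2 each had 1 half-site, 185 and 186 bases before the start. Cdk1 had CHR matches 71 and 15 bases before its start, an E2F match at 131, and CCAAT on the minus strand of the printed letters (ATTGG) at 208, 80 and 48. The windows of Cdkn2c, the other gene called, held none of these motifs and are not printed.

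Promoters were found for 46 of the 54 genes, some of them with more than 1 window. A listed gene counted as holding a motif when any of its windows did. The shares of all promoters were taken per window, so the 2 kinds of share are not on the same footing. All motifs were searched on both strands, with CHR as TTTGAA or TTCGAA, E2F as TTTGGCGC, TTTGCCGC, TTTCGCGC or TTTCCCGC, the CCAAT box as CCAAT, and the p53 half-site by its name. A p53 half-site was in the window of 7 of 14 p53 targets (50%), which were Cdkn1a, Mdm2, Ccng1, Bax, Gadd45a, Sesn1 and Aen, beside 7.13% of 32851 promoters of all genes. It was also in 2 of 11 mitosis genes (18.2%), Birc5 and Bub1b, and in 1 of 10 replication genes, Tyms. CHR was in 6 of 11 mitosis genes (54.5%), 2 of 10 replication genes and 3 of 14 p53 targets, beside 17.1% of all promoters. E2F letters were in 3 of 10 replication genes, Mcm5, Mcm6 and Mcm7, in 1 of 11 mitosis genes, Cdk1, and in 1.86% of all promoters. CCAAT was in 10 of 11 mitosis genes, 9 of 10 replication genes and 8 of 14 p53 targets (57.1%), beside 33.8% of all promoters. Of the 4 genes for p53 and kinase inhibitors, a p53 half-site was in 1, Trp53, E2F letters in 1, Cdkn2a, and CCAAT in 2. Of 5 genes of G1/S control, E2F letters and CCAAT were each in 1, Cdk2, and a p53 half-site in 0. CHR was in 0 genes of these groups. These letters are a description of the windows, and binding was not measured.

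Among p53 and the kinase inhibitors, Cdkn2c had the largest change. Cdkn2c encodes an INK4 protein that holds Cdk4 and Cdk6 inactive, and it is a minus-strand gene of chromosome 4 (109660876 to 109667189). The WT livers were at 6.63, 5.82, 5.83 and 5.13 CPM, and the N-LKO livers at 13.5, 11.1, 11.1 and 12.4 CPM. Every N-LKO liver was above every WT liver, and the lowest N-LKO value was well over the highest WT value. The genotype means were 5.85 ± 0.611 and 12 ± 1.14 CPM (SD, n = 4 each), so that the N-LKO level was 205% of the WT level. Cdkn2c rose by 1.04 on the log2 scale (SE 0.117, 95% interval 0.78 to 1.30, adjusted p = 0.00184 from edgeR). It was called whichever mouse was left out, at 0.98 to 1.11 with adjusted p of 0.00391 to 0.00945 in edgeR.

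Cdkn1b, the inhibitor of cyclin E and Cdk2 that holds resting cells in G1, had the highest level per kb of exon in this group, 7.26 CPM per kb. It was at 31.5, 29.8, 34.0 and 30.6 CPM in WT livers and at 33.7, 31.5, 37.7 and 35.4 CPM in N-LKO livers. The genotypes overlapped, and the log2 fold change was 0.14 (95% interval -0.04 to 0.31, adjusted p = 0.529 from edgeR).

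Trp53, the gene for p53 itself, was at 12.9, 14.1, 10.8 and 12.7 CPM in WT livers. In N-LKO livers it was at 8.45, 8.98, 11.6 and 10.4 CPM. Of the N-LKO livers, 3 were below all WT livers and replicate 3 was above WT replicate 3. Its log2 fold change of -0.36 (SE 0.125, 95% interval -0.64 to -0.09) had an unadjusted p of 0.0150 and an adjusted p of 0.239 in edgeR, and so did not pass. Trp53 lies on chromosome 11 from 69580359 to 69591873. The mRNA level of p53 does not measure the protein, whose amount is set largely by its breakdown.

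**Figure D2:**
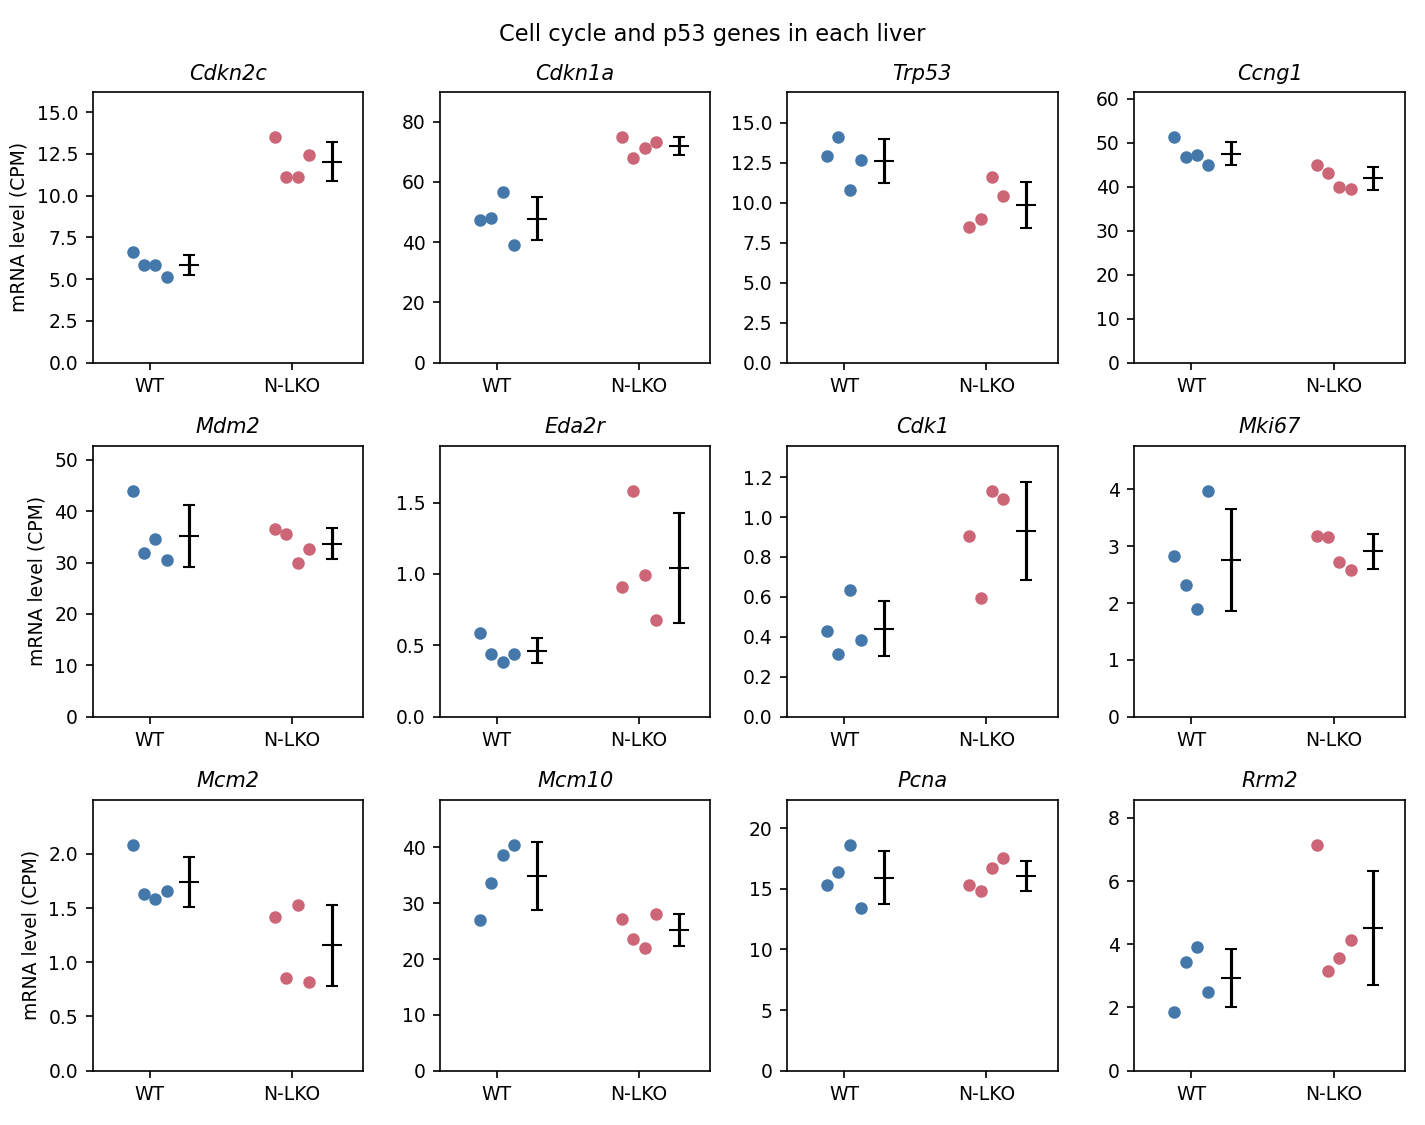
CPM (y axis, from 0) of 12 genes in each WT (blue) and N-LKO (red) liver, with the mean and SD of each genotype beside the points. In Cdkn2c, Cdkn1a and Eda2r all N-LKO livers are above all WT livers, in Mcm2 all are below, and in the other 8 genes the genotypes overlap.

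Of the 16 p53 targets, 15 were tested and 1 was called, Cdkn1a, beside 1.04% of all genes tested. Cdkn1a encodes the inhibitor through which p53 stops the cell cycle, and is a plus-strand gene of chromosome 17 (29090976 to 29100727). It had the highest level per kb of exon among the targets, 16.8 CPM per kb. The WT livers were at 47.4, 48.0, 56.7 and 39.1 CPM, and the N-LKO livers at 74.9, 67.9, 71.3 and 73.4 CPM. All N-LKO livers were above all WT livers, and they lay closer together than the WT livers did. From a mean of 47.8 ± 7.22 to one of 71.9 ± 3.05 CPM (SD, n = 4 each), Cdkn1a rose by 0.59 on the log2 scale (SE 0.103, 95% interval 0.36 to 0.82, adjusted p = 0.0224 from edgeR), a 1.5-fold difference.

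The call of Cdkn1a was nearer to the threshold than that of Cdkn2c, and it was lost when any 1 of 6 mice was left out. The adjusted p from edgeR was 0.0535 without WT replicate 1, 0.0675 without WT replicate 2, 0.0505 without WT replicate 4, 0.0636 without N-LKO replicate 1, 0.0679 without N-LKO replicate 3 and 0.0570 without N-LKO replicate 4. Without WT replicate 3 or N-LKO replicate 2 it was 0.0130 and 0.0307. Across these fits the log2 fold change was 0.50 to 0.68. Cdkn1a shares 273 exonic bases with AC167363.2, a transcript on the opposite strand, and since the strand of counting is not stated, reads of that stretch cannot be told apart.

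Among the other genes that p53 turns on, the values lay on both sides of 0. Without Cdkn1a, 0 of the 14 remaining targets tested were called. An unadjusted p under 0.05 was found in 2 of them, 1 in each direction, beside 12.8% of all genes tested. Their median log2 fold change was -0.039, with 6 above and 8 below 0, and with Cdkn1a the median was -0.016, with 7 above and 8 below. The median of the 15 targets was 0.097, 0.093 and 0.0083 without WT replicate 1, N-LKO replicate 1 and N-LKO replicate 4, and -0.11 to -0.067 without each of the other 5 mice.

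Mdm2 encodes the ligase that degrades p53, and Ccng1 encodes cyclin G1. Mdm2 was at 43.9, 31.8, 34.6 and 30.4 CPM in WT livers and at 36.5, 35.6, 29.9 and 32.7 CPM in N-LKO livers. The genotypes overlapped, and the log2 fold change was -0.06 (95% interval -0.33 to 0.20, adjusted p = 0.885 from edgeR). Ccng1 was at 51.3, 46.8, 47.2 and 44.9 CPM in WT livers, and at 44.9, 43.2, 40.0 and 39.5 CPM in N-LKO livers. Of the N-LKO livers 3 were below every WT liver, and the value of -0.18 (SE 0.0745, 95% interval -0.35 to -0.02) had an unadjusted p of 0.0327 and an adjusted p of 0.337 in edgeR. The upper bounds for Mdm2 and Ccng1 were thus below the lower bound of 0.36 for Cdkn1a, as were those of Fas (0.09) and Aen (0.03). All other targets tested had upper bounds above 0.36, from 0.40 for Zmat3 to 1.89 for Eda2r, so their intervals overlapped that of Cdkn1a.

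The distance between Cdkn1a and other targets was also taken within each mouse, as the difference of their log2 CPM, which removes the scaling of the library. It was larger in N-LKO livers by 0.65 against Mdm2, 0.78 against Ccng1, 0.44 against Zmat3 and 0.46 against Cdkn1b, which was added as an inhibitor that is no p53 target. In each of these 4 comparisons all N-LKO livers were above all WT livers (exact two-sided permutation test, p = 0.0286 each and 0.0286 after Benjamini-Hochberg adjustment, the smallest p that 4 against 4 mice allow). The partners were chosen after their values had been seen, and all 4 comparisons share the values of Cdkn1a. Cdkn1a was itself taken because it was called and its genotypes did not overlap. Against partners with values near 0 or below it, the outcome was largely set beforehand, so these p-values add no separate support. Eda2r and Gadd45a, targets with values of 1.15 and 0.62, were not among the partners.

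Eda2r, the gene for an ectodysplasin receptor, is a target with little mRNA in these livers, 32 counts over all WT livers and 65 over all N-LKO livers. It was at 0.588, 0.438, 0.380 and 0.441 CPM in WT livers and at 0.907, 1.58, 0.995 and 0.679 CPM in N-LKO livers. The genotypes did not overlap. Its log2 fold change of 1.15 (SE 0.334, 95% interval 0.41 to 1.89, unadjusted p = 0.00567, adjusted p = 0.164 from edgeR) did not pass the adjustment. Phlda3, a p53 target that restrains AKT, was below the filter, with counts of 2, 4, 7 and 4 in WT livers and of 12, 8, 9 and 11 in N-LKO livers. Its genotypes did not overlap either, and without the filter its log2 fold change was 1.32 (SE 0.448, adjusted p = 0.256 from edgeR).

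Genotypes that do not overlap were found in 4 of the 42 genes tested (9.52%), beside 7.52% of all genes tested. Cdkn2c, Cdkn1a and Eda2r were higher (4.20% of all genes tested) and Mcm2 was lower (3.32% of all genes tested).

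The p53 targets that act in cell death were Bax, Bbc3, Pmaip1, Fas and Aen. Their log2 fold changes were -0.02 for Bax, -0.25 for Bbc3, 0.03 for Pmaip1, -0.17 for Fas and -0.20 for Aen, and 0 of the 5 had an unadjusted p under 0.05 in edgeR. Fas, a death receptor, was steady among N-LKO livers, at 15.9 to 16.2 CPM, and ranged from 14.4 to 21.3 CPM in WT livers. Zmat3, an RNA-binding protein, had genotype means of 7.43 ± 0.547 in WT and 8.33 ± 0.695 CPM in N-LKO livers (SD, n = 4 each), with a log2 fold change of 0.16 (adjusted p = 0.584 from edgeR). Sesn1, which restrains mTORC1, had a value of 0.13 (adjusted p = 0.834 from edgeR).

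The targets that also answer quickly to stress signals differed widely from mouse to mouse. Btg2, an antiproliferative gene, was at 33.5, 12.6, 7.48 and 6.35 CPM in WT livers and at 12.2, 7.33, 15.8 and 8.22 CPM in N-LKO livers. Plk3, a stress-induced kinase, was at 50.8, 13.4, 9.76 and 11 CPM in WT livers and at 32.3, 15, 15.7 and 7.27 CPM in N-LKO livers. In both genes WT replicate 1 was the highest liver of all, and leaving it out turned the log2 fold change from -0.47 to 0.31 for Btg2 and from -0.27 to 0.63 for Plk3. Gadd45a, which acts in DNA repair and growth arrest, ranged from 0.188 to 1.08 CPM in WT livers and from 0.567 to 1.92 CPM in N-LKO livers, a log2 fold change of 0.62 (SE 0.506, adjusted p = 0.662 from edgeR). Plk2 had a value of 0.12 (SE 0.299). The relatives Gadd45b and Gadd45g, which are induced by other stress signals as well, had values of -0.48 and -0.40 with adjusted p of 0.682 and 0.837 in edgeR. Gadd45g had the higher level of this pair per kb of exon, 16.1 CPM per kb, and was at 39.2, 25.5, 3.74 and 17.4 CPM in WT livers and at 30.7, 5.41, 10.9 and 17.9 CPM in N-LKO livers, so the ranges of the genotypes overlapped widely.

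In log2 CPM, the median SD among the 15 targets tested was 0.26 in WT livers and 0.26 in N-LKO livers, with the highest SD at 1.1 and 0.87, and for the pair Gadd45b and Gadd45g the median SD was 1.2 and 0.80. Over all genes tested the median SD was 0.18 and 0.19. The map of each gene in each mouse shows these genes at its lower end.

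**Figure D3:**
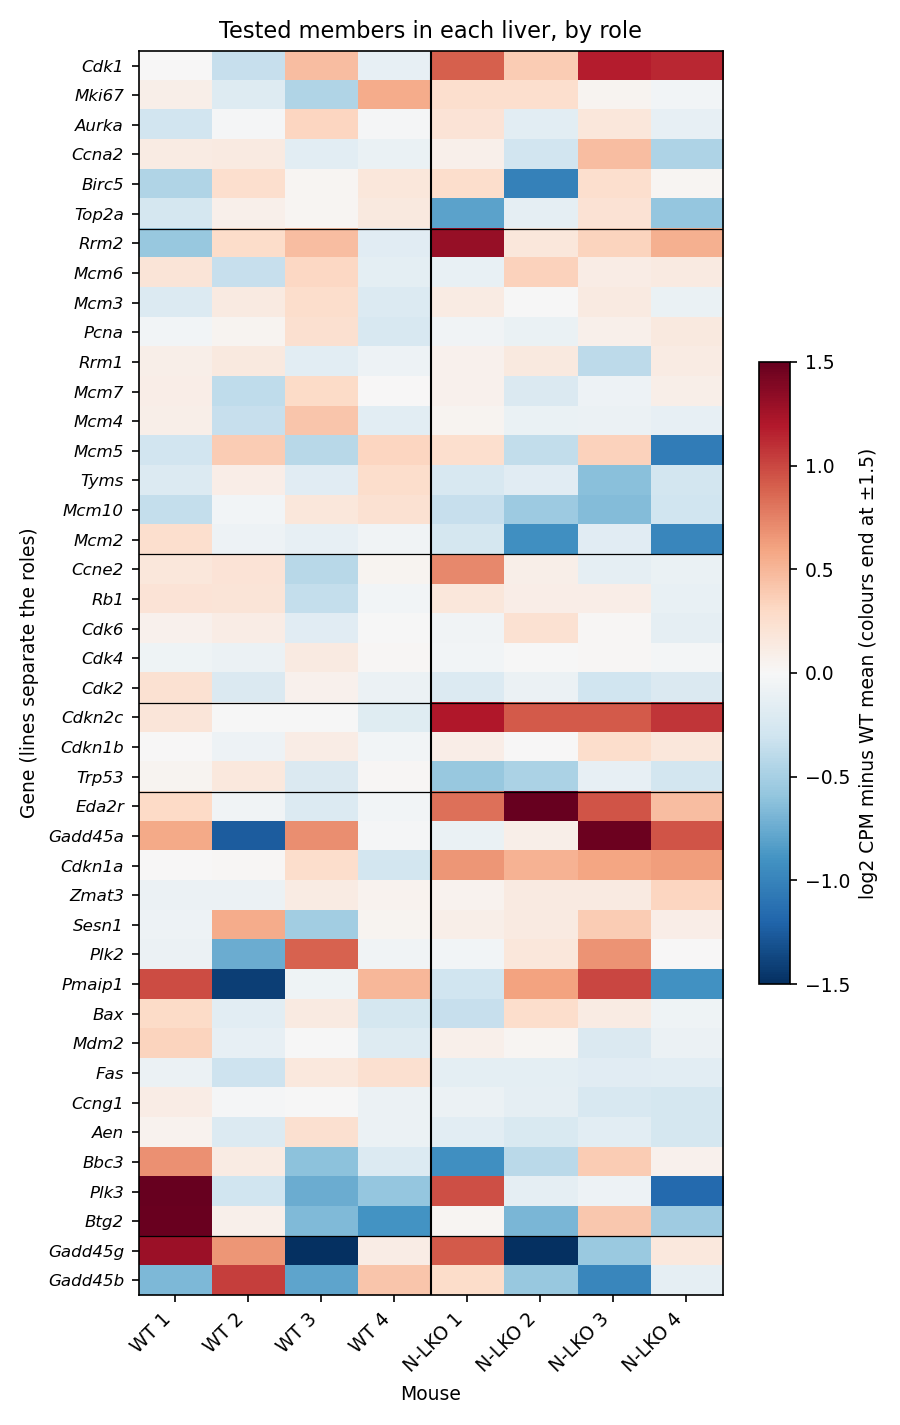
Log2 CPM minus the WT mean (colour, ending at ±1.5) of the 42 genes tested (rows, grouped by role) in each mouse (columns). Cdkn2c and Cdkn1a are red in all 4 N-LKO livers, whereas Btg2, Plk3 and Gadd45g vary widely among mice of both genotypes.

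The mitotic genes had little mRNA, and those below the filter were near the floor of the assay. Mki67, which passed the filter, had 30 to 72 counts in each WT liver and 38 to 56 in each N-LKO liver. Of the 14, 6 passed the filter and 0 were called, and 1 had an unadjusted p under 0.05 in edgeR, beside 12.8% of all genes tested. The summed level of all 14 was 9.62, 10, 10.8 and 12.5 CPM in WT livers and 11.2, 10, 13.2 and 9.10 CPM in N-LKO livers, so that the N-LKO livers lay on both sides of the WT livers. The median log2 fold change of the 6 genes tested was 0.0055, with 3 above and 3 below 0.

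Mki67, the marker of cycling cells, was at 2.83, 2.31, 1.90 and 3.97 CPM in WT livers and at 3.18, 3.17, 2.72 and 2.58 CPM in N-LKO livers. All N-LKO livers lay within the range of the WT livers, and the log2 fold change of 0.07 had a 95% interval of -0.43 to 0.58 (adjusted p = 0.933 from edgeR). Aurka, a kinase of the spindle poles, had the highest level per kb of exon in this group, 0.924 CPM per kb. It was at 1.87, 2.25, 2.92 and 2.26 CPM in WT livers and at 2.66, 2.05, 2.59 and 2.10 CPM in N-LKO livers, and the genotypes overlapped (log2 fold change 0.02, 95% interval -0.41 to 0.46). Ccna2, Birc5 and Top2a, which encode cyclin A2, survivin and topoisomerase II alpha, had values of -0.01, -0.05 and -0.32 with adjusted p of 0.992, 0.976 and 0.716 in edgeR.

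Cdk1, the kinase that drives entry into mitosis, had the largest value of the group. It is a minus-strand gene of chromosome 10 (69335146 to 69352938). It was at 0.427, 0.313, 0.634 and 0.386 CPM in WT livers and at 0.907, 0.594, 1.13 and 1.09 CPM in N-LKO livers, from 30 counts in all against 58. Of the N-LKO livers 3 were above every WT liver, and N-LKO replicate 2 was below WT replicate 3. The log2 fold change of 1.07 (SE 0.331, 95% interval 0.34 to 1.80, unadjusted p = 0.00825) did not pass, with an adjusted p of 0.190 in edgeR.

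The other 8 mitotic genes, Ccnb1, Ccnb2, Aurkb, Plk1, Bub1, Bub1b, Cdc20 and Foxm1, were below the filter. They included the B cyclins, which activate Cdk1, and Foxm1, the factor that turns on the mitotic programme. Ccnb1 summed to 18 counts over the WT livers and 17 over the N-LKO livers, Foxm1 to 18 and 8, Plk1 to 14 and 7, and Bub1b to 33 and 28. In 4 of the 11 genes below the filter at least 1 mouse was at 0 counts, and the highest count of any of the 11 in 1 mouse was 18. At this depth no difference was detectable in the 8 mitotic genes, whose adjusted p without the filter was 0.665 to 0.988 in edgeR.

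All 11 replication genes were tested and 0 were called. Of these, 2 had an unadjusted p under 0.05 in edgeR, both with lower values in N-LKO livers, beside 5.9% of all genes tested. Their median log2 fold change was -0.049, with 4 above and 7 below 0. Their summed level averaged 79.7 ± 7.69 in WT and 70.0 ± 5.34 CPM in N-LKO livers (SD, n = 4 each), with ranges of 70.5 to 88.9 CPM and 64.9 to 75.0 CPM that overlapped. Mcm10 was the largest term of this sum, with a mean of 34.9 CPM in WT and 25.1 CPM in N-LKO livers.

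Mcm10, a factor that helps to open origins and to bring polymerase alpha to them, was at 26.9, 33.6, 38.7 and 40.4 CPM in WT livers. In N-LKO livers it was at 27.1, 23.5, 22 and 28 CPM. WT replicate 1 lay among the N-LKO livers, and the other 3 WT livers lay above all of them. Its log2 fold change was -0.47 (SE 0.132, 95% interval -0.76 to -0.18, unadjusted p = 0.00449, adjusted p = 0.153 from edgeR). Without WT replicate 1 it was called, at -0.58 with an adjusted p of 0.0415 in edgeR. Per kb of exon Mcm10 was at 3.90 CPM per kb, whereas the other Mcm genes were at 0.134 to 1.35 CPM per kb. Mcm10 is a minus-strand gene of chromosome 2 (4989714 to 5012791), and no exon of another gene overlapped its exons in the GENCODE M21 annotation.

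Mcm2 to Mcm7 encode the ring of the replicative helicase. Mcm2, on chromosome 6 from 88883474 to 88898780, was at 2.08, 1.63, 1.58 and 1.66 CPM in WT livers and at 1.42, 0.858, 1.53 and 0.815 CPM in N-LKO livers. The genotypes did not overlap, although N-LKO replicate 3 was close to WT replicate 3. Its log2 fold change of -0.58 (SE 0.262) had an unadjusted p of 0.0484 and an adjusted p of 0.388 in edgeR. The other helicase subunits had values of 0.03 for Mcm3, -0.09 for Mcm4, -0.16 for Mcm5, 0.10 for Mcm6 and -0.05 for Mcm7, with adjusted p of 0.891 to 0.970 in edgeR. Counts of Mcm7 include exonic bases shared with Ap4m1 and Cops6 on the opposite strand.

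Pcna, the sliding clamp of the replication fork, had the highest level per kb of exon among the replication genes, 6.67 CPM per kb. It was at 15.3, 16.4, 18.6 and 13.4 CPM in WT livers and at 15.3, 14.8, 16.7 and 17.5 CPM in N-LKO livers. The N-LKO livers lay within the WT range, and the log2 fold change of 0.01 had a 95% interval of -0.23 to 0.26 (adjusted p = 0.978 from edgeR). Pcna is also a p53 target, so it stands between the groups compared here.

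Of the genes that make deoxynucleotides, Rrm1 and Rrm2 encode the subunits of ribonucleotide reductase and Tyms encodes thymidylate synthase. Rrm2 was at 1.87, 3.44, 3.93 and 2.48 CPM in WT livers and at 7.14, 3.17, 3.58 and 4.14 CPM in N-LKO livers. N-LKO replicate 1 stood far above the others, and the log2 fold change of 0.64 (SE 0.297, adjusted p = 0.402 from edgeR) was 0.32 without it. Rrm1 had genotype means of 6.48 ± 0.638 in WT and 6.46 ± 1.05 CPM in N-LKO livers (SD, n = 4 each), and its 95% interval ran from -0.32 to 0.32. Tyms had a log2 fold change of -0.34 (SE 0.176, adjusted p = 0.460 from edgeR), with 3 of the 4 N-LKO livers below every WT liver.

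Of the 7 genes of G1/S control 5 were tested, 0 were called and 0 had an unadjusted p under 0.05 in edgeR. Cdk4 and Cdk6 are the kinases that the protein of Cdkn2c inhibits. Cdk4 was at 25.8, 25.3, 29.5 and 27.1 CPM in WT livers and at 26.0, 26.8, 27.2 and 26.3 CPM in N-LKO livers, which all lay within the WT range. Its log2 fold change was -0.02 (95% interval -0.18 to 0.15), and its level of 8.23 CPM per kb of exon was the highest of the group. Cdk4 shares 641 exonic bases with Tspan31 on the opposite strand, so part of its count may belong to that gene. Cdk6 averaged 45.2 ± 3.72 in WT and 45.8 ± 5.28 CPM in N-LKO livers (SD, n = 4 each), with a log2 fold change of 0.02 (95% interval -0.19 to 0.23).

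Cdk2, Rb1 and Ccne2 had log2 fold changes of -0.21, 0.06 and 0.18 with adjusted p of 0.524, 0.908 and 0.827 in edgeR. Rb1 encodes the retinoblastoma protein, which holds E2F factors, and Ccne2 a cyclin E that activates Cdk2. Ccne1 and E2f1 were below the filter. Ccne1 had counts of 4, 4, 6 and 4 in WT livers and of 18, 5, 6 and 9 in N-LKO livers, and without the filter its log2 fold change of 1.15 had an adjusted p of 0.380 in edgeR. E2f1 summed to 36 and 39 counts.

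Set side by side, the p53 targets and the genes of mitosis and replication had nearly the same balance. The median log2 fold change was -0.013 for the 17 mitosis and replication genes tested, with 7 above and 10 below 0, and -0.016 for the 15 p53 targets. The first median was 0.0044 without WT replicate 2 and 0.024 without N-LKO replicate 2, and -0.045 to -0.030 without each of the other 6 mice. Of the first group 0 were called, and 3 had an unadjusted p under 0.05 in edgeR, and of the second 1 was called, with 3 at that level. Of all genes tested 1.04% were called and 12.8% were at that level. The mean log2 CPM of the 17 genes was 1.46 ± 0.08 in WT and 1.43 ± 0.13 in N-LKO livers (SD, n = 4 each). For the 15 p53 targets it was 2.83 ± 0.29 and 2.94 ± 0.17 (SD, n = 4 each). The differences of -0.022 and 0.11 were each smaller than the SD among WT livers for the same genes. The summed level of all 16 targets was 199 to 293 CPM in WT livers and 225 to 262 CPM in N-LKO livers.

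**Figure D4:**
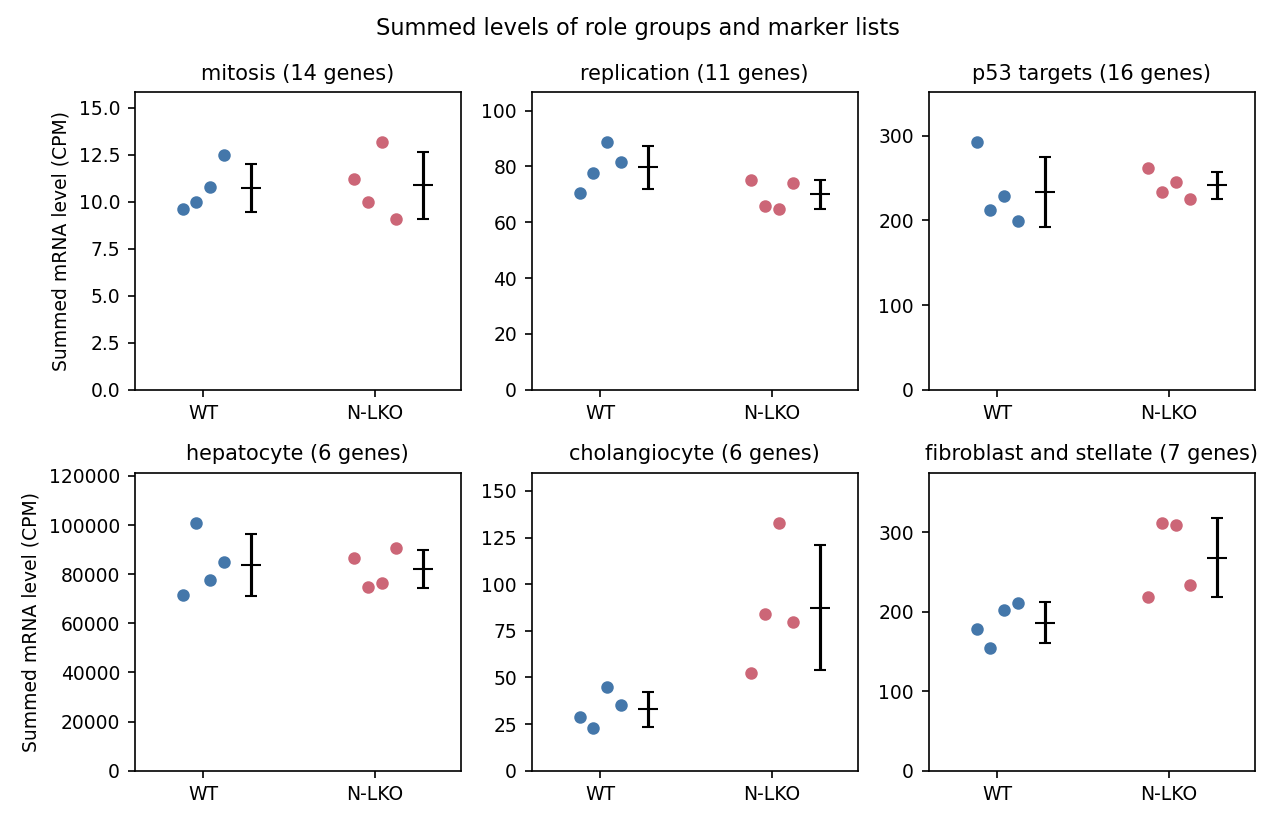
Summed CPM (y axis, from 0) of the mitosis, replication and p53 target genes and of 3 marker lists in each WT (blue) and N-LKO (red) liver, with the mean and SD of each genotype. The 3 upper sums and the hepatocyte sum overlap between genotypes, while the cholangiocyte and the fibroblast and stellate sums are higher in all N-LKO livers.

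Among the list sums of other cells, those of cholangiocyte and of fibroblast and stellate cell markers moved with genotype, and the others overlapped. The 6 cholangiocyte markers summed to 23.1 to 45 CPM in WT livers and 52.5 to 133 CPM in N-LKO livers, and the 7 fibroblast and stellate cell markers to 154 to 211 CPM and 218 to 312 CPM. In neither list was a marker at 0 in all mice. The largest term of the cholangiocyte sum was Spp1, with means of 23.9 CPM in WT and 68.1 CPM in N-LKO livers. Dcn was the largest term of the other sum, at 143 and 193 CPM. Krt7, below the filter, was at 98.8% of its WT level and Lrat at 90.2%, while all other markers of both lists had higher means in N-LKO livers. The part of these markers in the values above was not tested. In whole liver, more cells of a type and more RNA per cell cannot be told apart. The macrophage sum was 95.3 to 165 CPM in WT livers and 100 to 164 CPM in N-LKO livers, and the T and NK cell sum 2.03 to 3.31 CPM and 2.51 to 3.57 CPM. The B cell markers summed to 1.25 to 3.09 CPM and 0.815 to 2.12 CPM, the endothelial markers to 135 to 164 CPM and 128 to 148 CPM, and the neutrophil markers to 0.750 to 3.85 CPM and 1.81 to 2.44 CPM. Erythroid markers varied most, from 42.7 to 333 CPM and from 47.8 to 188 CPM.

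Further genes of the same pathways were taken from lists by known function. Of 29 other mitosis genes 11 were tested, 0 were called and 0 had an unadjusted p under 0.05 in edgeR, with 9 above and 2 below 0 and a median log2 fold change of 0.20. Of 20 other replication genes 15 were tested and 0 were called. An unadjusted p under 0.05 in edgeR was found in 1, beside 12.8% of all genes tested. It was Prim1, the catalytic subunit of primase (log2 fold change -0.57, adjusted p = 0.284). Of 13 other G1 genes 9 were tested, with 0 called and 0 at that level in edgeR.

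By sign, a second list of p53 targets was as evenly divided. Of 18 genes 16 were tested and 0 were called, with 8 above and 8 below 0 and a median of 0.0013. Below the filter were Tnfrsf10b, with 17 counts over all WT livers and 32 over all N-LKO livers, and Ak1, with 9 and 25. The genotypes did not overlap in Tnfrsf10b and overlapped in Ak1. The 4 of these 16 with an unadjusted p under 0.05 in edgeR all had lower values in N-LKO livers, beside 5.9% of all genes tested that were lower at that level. These were Epha2, a receptor kinase, at -0.88 (adjusted p = 0.117), Polk, a polymerase that bypasses DNA damage, at -0.59 (adjusted p = 0.132), Perp, a desmosome and cell death gene, at -0.24 (adjusted p = 0.264), and Xpc, the damage sensor of nucleotide excision repair, at -0.24 (adjusted p = 0.385).

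In checkpoint control 7 of 9 genes were tested and 0 were called. Of these 7, 2 had an unadjusted p under 0.05 in edgeR, both higher, beside 6.87% of all genes tested. Wee1, the kinase that restrains Cdk1, averaged 2.46 ± 0.277 in WT and 4.37 ± 1.21 CPM in N-LKO livers (SD, n = 4 each), with a log2 fold change of 0.83 (SE 0.210, adjusted p = 0.112 from edgeR). Atr, the kinase that senses stalled forks, averaged 21.5 ± 2.99 and 25.9 ± 0.990 CPM (SD, n = 4 each), with a value of 0.26 (adjusted p = 0.305 from edgeR). In both genes all N-LKO livers were above all WT livers, which held for 4.20% of all genes tested. The growth suppressor Apc had a value of 0.09, with an adjusted p of 0.670 in edgeR.

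Of 11 senescence genes 8 were tested and 0 were called, with 1 above and 7 below 0 and a median of -0.28. Il1a, a cytokine that senescent cells secrete, was at 0.59 (adjusted p = 0.210 from edgeR). Igfbp3, a binding protein of insulin-like growth factors, was at -0.51 (adjusted p = 0.224 from edgeR). These were the 2 of the 8 genes tested with an unadjusted p under 0.05 in edgeR, beside 12.8% of all genes tested.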

How the data were processed

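Total RNA of 8 livers was sequenced after removal of rRNA, and the authors deposited 1 expected count per gene and mouse, an estimated read count that need not be whole (52.3% of rows had decimals) and that is not scaled to depth. The labels' processing notes name STAR, Partek and mm9, whereas the study's methods name TopHat2 and cuffdiff. Which program and annotation gave the counts, and whether strand was used, are not given in the sources used here. The gene coordinates deposited matched GRCm38 (GENCODE M21) within 1 base for 99% of 19194 named genes, and positions printed are those of M21. The library kit named is for small RNA.

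Counts were rounded, filtered (filterByExpr, minimum count 10, minimum total 15), TMM-scaled and fitted on genotype alone with glmQLFit and glmQLFTest of edgeR 4.0.16 (R 4.3.3). Cuffdiff needs reads and was not run. SE was taken as the size of the log2 fold change over the root of its F statistic. A prior count of 2 entered log2 CPM. The exact permutation test over mice served for single values. The edgeR p-values set the difference between genotypes against the spread between these mice, estimated with information shared over genes. The fit was tested on simulated data, where edgeR recovered 89.5% of 200 genes changed 2-fold, with 9 false calls. Every simulated gene was given the same spread between mice, unlike the genes in these livers. That share therefore does not carry over to the genes listed here. No libraries agreed within sampling noise (chi-square per degree of freedom 11.8 to 68.6).

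Named with values in every mouse were genes called, at an unadjusted p under 0.05 or without overlap, the highest gene of each role per kb, and Mki67, Trp53 and Cdkn1a. Genes below the filter were given as counts. Mdm2, Btg2, Plk3 and Rrm2 fell outside this rule and were given per mouse after their values were seen. In the further pathway lists, genes called or at an unadjusted p under 0.05 were named, without values per mouse. Apc, Tnfrsf10b and Ak1 were added after their values were seen. The genes and lists were chosen with earlier results of these data known. The fit was repeated with DESeq2 1.42.0, with RLE scaling, on library totals without TMM, unfiltered, on genes with 10 or more counts in each mouse, with the replicate number as a block, and with each mouse left out. Promoters came from RefSeq (GRCm38.p6). For 1 checkpoint gene the value is not reported here.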

Additional observations from a re-analysis of the deposited data

Results flagged for a closer look

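In groups of 4 mice, 1 liver stood apart from the other 3 in 4 of the 88 gene and genotype groups examined, where chance gives about 4.4. Mcm2 was at 1.14 log2 CPM in WT replicate 1, with the other WT livers at 0.77 to 0.83. Rrm1 was at 2.33 log2 CPM in N-LKO replicate 3, with the others at 2.78 to 2.86. Sesn1 was at 3.67 log2 CPM in N-LKO replicate 3, with the others at 3.38 to 3.42. Nus1 was at 6.36 log2 CPM in WT replicate 1, with the others at 6.49 to 6.50.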

How the results depend on the processing

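Cdkn2c was called under every alternative run, and Cdkn1a under each of those that kept all mice, with log2 fold changes of 0.55 to 0.60 and adjusted p from 7.37e-05 (DESeq2) to 0.0488 (replicate block). The number of genes called in the list was 1 to 2 with a mouse left out. Over all genes, 148 were called, beside 98 with at least 10 counts in every mouse, 371 with DESeq2 (66.8% higher, against 79.1%) and 71 (without WT replicate 4) to 173 (without N-LKO replicate 2) with a mouse left out, of which WT replicates 2 and 3 and N-LKO replicate 3 gave 83, 91 and 76. With the replicate number as a block 131 genes were called, Cdkn2c and Cdkn1a among them. Over all genes tested, mice that share a number did not deviate together (correlations -0.085 to 0.062). Such correlations cannot exclude that the numbers pair mice, or a shared deviation in some genes. The median of the mitosis and replication genes was -0.057 to 0.024 over all alternatives, and that of the p53 targets -0.12 to 0.097.

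On library totals without TMM, values were -0.012 for Aurka, -0.020 for Pcna, -0.0014 for Mcm3 and -0.010 for Cdk6, all positive with TMM, and the median over all genes was -0.037. With a mouse left out, values of uncalled genes crossed 0, with ranges of -0.065 to 0.30 for Mki67, -0.23 to 0.12 for Ccna2, -0.20 to 0.20 for Birc5, -0.070 to 0.15 for Aurka, -0.062 to 0.096 for Pcna, -0.038 to 0.13 for Mcm3, -0.20 to 0.064 for Mcm4, -0.38 to 0.087 for Mcm5, -0.0076 to 0.21 for Mcm6, -0.16 to 0.051 for Mcm7, -0.055 to 0.11 for Rrm1, -0.078 to 0.28 for Ccne2, -0.045 to 0.029 for Cdk4, -0.058 to 0.067 for Cdk6, -0.048 to 0.12 for Rb1, -0.13 to 0.064 for Mdm2, -0.11 to 0.097 for Bax, -0.50 to 0.057 for Bbc3, -0.36 to 0.44 for Pmaip1, -0.016 to 0.35 for Sesn1, -0.72 to 0.31 for Btg2, -0.085 to 0.49 for Plk2, -0.75 to 0.63 for Plk3 and -0.92 to 0.067 for Gadd45g. The cause was not tested. Depth limits genes near 3 counts.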
